A study of Mus musculus with 20 samples.

Results

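The comparison described here sets time points 3-4 against time points 1-2 of a glutamine experiment in Hepa1-6 cells, a mouse hepatoma line. It uses 8 of the 20 arrays of the study, 4 on either side, and covers 4803 genes or unnamed probes that had 3 or more values a side. Confluent flasks had their medium exchanged at the start and after 24, 48 and 72 h, and were followed for 96 h. At each exchange the experimental flasks switched between medium with 0 and with 4 mM glutamine, and the control flasks always received 4 mM. Each array carried RNA of an experimental flask labelled with Cy5 and RNA of a control flask labelled with Cy3, so every value is a ratio of both. Time points 3-4 comprised arrays 3, 3r, 4 and 4r, and time points 1-2 comprised arrays 1, 1r, 2 and 2r. All 8 used the same cell line. The hour of a time point and the glutamine level of its flask are not given in the sources used here, nor is the meaning of r, which could be a second hybridisation or a second flask. The p-values may therefore measure technical spread only. The label of array 4 names cells without glutamine in its control channel, unlike the other labels. Its first channel is labelled like that of arrays 3, 3r and 4r, and its direction was kept. Array 4 correlated at 0.38 to 0.71 with the other 7 arrays across probes, and results without it are given below.

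Glutamine feeds the tricarboxylic acid cycle and supplies nitrogen for nucleotides and amino acids in cultured cells, and hepatoma cells also take up much glucose and pass it through glycolysis. When amino acids run short, translation is slowed and the transcription factor ATF4 induces genes for amino acid synthesis and transport. A log2 ratio of 0 means that a probe lay at the median probe of its array. Above 0, the ratio of the flasks with varied glutamine to the control flasks was likely above that of the median probe. That RNA is listed as the first channel. The deposited medians were 0.18 to 0.435, so a centred value of 0 does not mean equal channels. A single ratio also keeps any dye bias of the gene. The direction and the base of the deposited ratios are assumptions. A difference between time points removes a constant dye bias of a gene, but it can come from the experimental flasks, from the control flasks or from both. In RNA of whole cultures, fewer cells of a kind and less RNA per cell cannot be told apart.

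Most differences between time points 3-4 and 1-2 were small. They had a 5th to 95th percentile range of -0.32 to 0.31 and a median of -0.04, against a median standard error of 0.14. Array values numbered 5555 to 6974, or 32.1% to 40.4% of the probes. Arrays of the same time point correlated at 0.52 to 0.66 across probes, arrays of different time points within a group at 0.32 to 0.71, and arrays of different groups at 0.22 to 0.68. Array 4r of time points 3-4 was most like array 2 of time points 1-2 (0.68), and array 2r was most like array 3 (0.57). The groups were thus not separate sets of arrays. With limma and Benjamini-Hochberg adjustment over all genes tested, 4 genes were higher at time points 3-4 (0.0833% of those tested) and 4 genes or probes were lower (0.0833%). At an unadjusted p under 0.05, 269 were higher (5.6%) and 263 were lower (5.48%). The arrays with a value, 3 or 4 a side, did not overlap for 130 genes that were higher (2.71%) and 161 that were lower (3.35%).

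Il1r1, which encodes the receptor for interleukin-1, was 1.08, 0.69, 0.745 and 0.89 on arrays 3, 3r, 4 and 4r, against 0.21, -0.35, 0.55 and 0.08 on arrays 1, 1r, 2 and 2r. Its ratio was above the array median on every array of time points 3-4, and the groups did not overlap. The log2 difference was 0.73 ± 0.16 (SE, n = 4 each; limma, adjusted p = 0.0417). Rhbdd1, a rhomboid protease of intracellular membranes, was 0.62, 0.91, 0.535 and 0.50 at time points 3-4, against -0.05, -0.14, 0.16 and 0.06 at time points 1-2. It lay near the array median at time points 1-2 and well above it later, with a difference of 0.63 ± 0.14 (SE, n = 4 each; limma, adjusted p = 0.0417). Prex2, an exchange factor that activates the GTPase Rac, was 0.32, 0.82, 0.385 and 0.57 at time points 3-4, against -0.04, -0.27, 0.11 and -0.32 at time points 1-2. The difference of Prex2 was 0.65 ± 0.14 (SE, n = 4 each; limma, adjusted p = 0.0425), and its groups did not overlap. Scd3, a stearoyl-CoA desaturase that makes monounsaturated fatty acids, was 0.27, 0.68 and 0.425 on arrays 3, 3r and 4, against -0.43, -0.81, -0.06 and -0.20 at time points 1-2. Array 4r gave no value for it, so that its difference of 0.83 ± 0.17 (SE, n = 3 and 4; limma, adjusted p = 0.0417) rests on 7 arrays.

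Csnk1g2, a casein kinase 1 isoform, was -1.26, -0.71, -1.695 and -0.86 on arrays 3, 3r, 4 and 4r, against -0.35, -0.37, -0.59 and -0.15 on arrays 1, 1r, 2 and 2r. It was below the array median on all 8 arrays and lower without overlap at time points 3-4, by a log2 difference of -0.77 ± 0.16 (SE, n = 4 each; limma, adjusted p = 0.0417). A further 3 features were named after their values were seen, since they fell outside the naming rule. Wipi2, a protein that helps form autophagosomes, was -1.58, -0.80, -1.415 and -1.32 at time points 3-4, against -0.235, -0.93, -0.74 and 0.13 at time points 1-2. Its groups overlapped through arrays 3r and 1r, and the difference was -0.83 ± 0.18 (SE, n = 4 each; limma, adjusted p = 0.0417). Wipi2 had 2 probes, of which one gave a value on 1 array only, and the other alone gave a difference of -0.71. Probe 13377, which has no gene name here, was -1.56, -0.96, -1.205 and -1.69 at time points 3-4, against -0.90, -0.74, -0.53 and -0.31 at time points 1-2, a difference of -0.73. Probe 11557, also unnamed, was -0.89, -0.91, -1.005 and -0.76 at time points 3-4, against -0.01, -0.34, -0.41 and -0.28 at time points 1-2, a difference of -0.63. For both probes the groups did not overlap (limma, adjusted p = 0.0417 each).

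**Figure D1:**
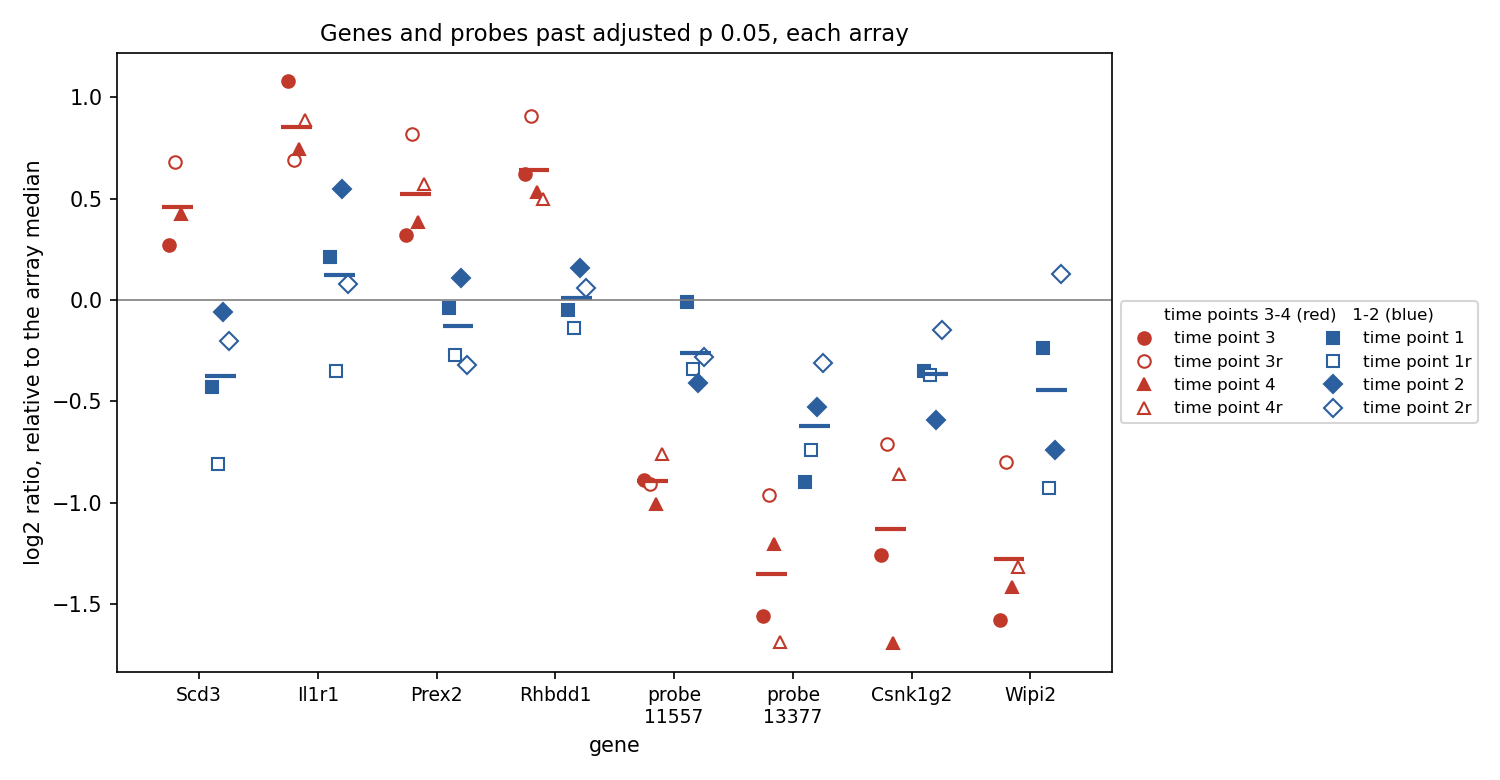
Each symbol is 1 array's log2 ratio relative to the array median (vertical axis) for the 6 genes and 2 unnamed probes past the threshold (horizontal axis), with time points 3-4 in red left of time points 1-2 in blue and bars at the group means. Red and blue symbols overlap for Wipi2, and Scd3 has 3 red symbols.

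These calls depended on single arrays. None of the 8 was called when array 1, array 1r or array 4 was left out, in which case no gene at all passed the threshold and 279, 339 and 293 genes had an unadjusted p under 0.05 in limma. With the arrays taken as independent, leaving out array 1r gave 0 genes higher and 11 lower, of which 3 were among the 8. All 8 stayed called without array 2, 2r or 4r, and 7 of them without array 3 or 3r. Those fits had negative estimated correlations. With the arrays taken as independent, 8, 0 and 4 stayed called without arrays 2, 2r and 4r, and 3 and 5 without arrays 3 and 3r. None was called with the arrays of a time point averaged first, where 400 genes had an unadjusted p under 0.05 in limma. On the unmarked arrays alone, 19 genes were called higher and 75 lower, whereas 0 were called on the arrays marked r alone, where 126 genes had an unadjusted p under 0.05 in limma. The difference on the unmarked arrays and that on the arrays marked r correlated weakly across the 3581 genes with all 8 values (Pearson 0.23, Spearman 0.16), and 54.2% of genes had the same sign in both. Genes are not independent replicates, and the correlation is a description. Il1r1 had a difference of 0.53 on the unmarked arrays and 0.93 on those marked r. Csnk1g2 had -1.01 and -0.53 on these sets of arrays, and Prex2 had 0.32 and 0.99.

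**Figure D2:**
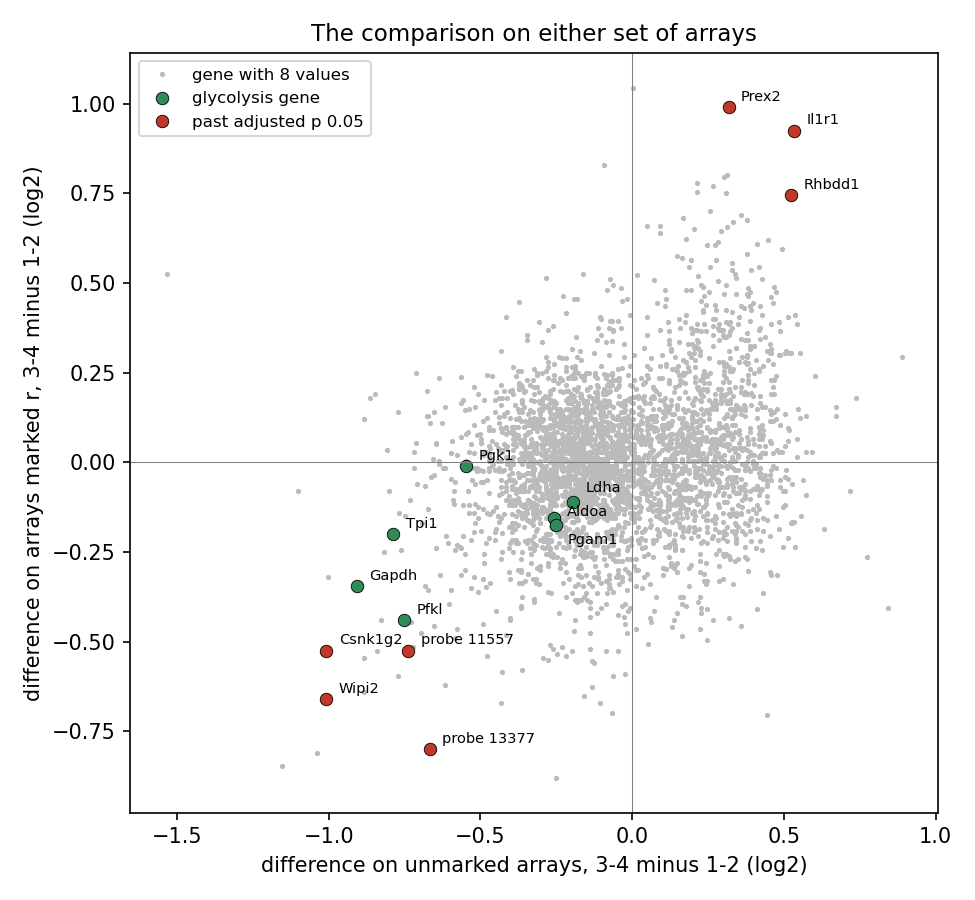
Each point is a gene with 8 values, with its log2 difference between time points 3-4 and 1-2 on the unmarked arrays (horizontal axis) and on the arrays marked r (vertical axis). Genes past the threshold (red) lie at the same sign on both axes, which is favoured by their being called on both sets together. Scd3 lacks 8 values and is not shown. Most other genes (grey) form a cloud around 0, and the glycolysis genes (green) lie farther left than down.

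The difference also went with the number of a probe in the deposited table. These numbers may follow the order of the spots, which is not stated in the sources used here. By number, the probes fall into 32 blocks of 540, and block medians of the difference ran from -0.18 to 0.17. Blocks held 26.8% of the variance of the difference over 4931 tested probes. A probe's difference correlated at 0.69 with the median difference of the other tested probes within 20 numbers in its block, as a description across probes that share arrays. Rhbdd1, Prex2 and Scd3 stood at places 528, 534 and 540 of block 16, which had the highest of the block medians. The 11 neighbours of Rhbdd1 were all above 0, with a median difference of 0.51, and the 11 of Prex2 were likewise all above 0. The 10 neighbours of Scd3 were all above 0 as well, with a median of 0.50. Rhbdd1, Prex2 and Scd3 lie within 20 numbers of each other and count among each other's neighbours. Their sets of neighbours therefore share probes and describe a single stretch of block 16. Il1r1 stood among 15 neighbours that were all below 0, with a median of -0.15. Csnk1g2 had 9 neighbours, all below 0, with a median of -0.20. When the median of the neighbours was taken off each value on each array, the difference was 0.15 for Rhbdd1, 0.16 for Prex2 and 0.36 for Scd3. It was 0.86 for Il1r1, -0.64 for Csnk1g2 and -0.65 for Wipi2. No gene passed the threshold in that limma fit, which was chosen after seeing the data, while 382 genes had an unadjusted p under 0.05. Why neighbours went together was not tested.

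**Figure D3:**
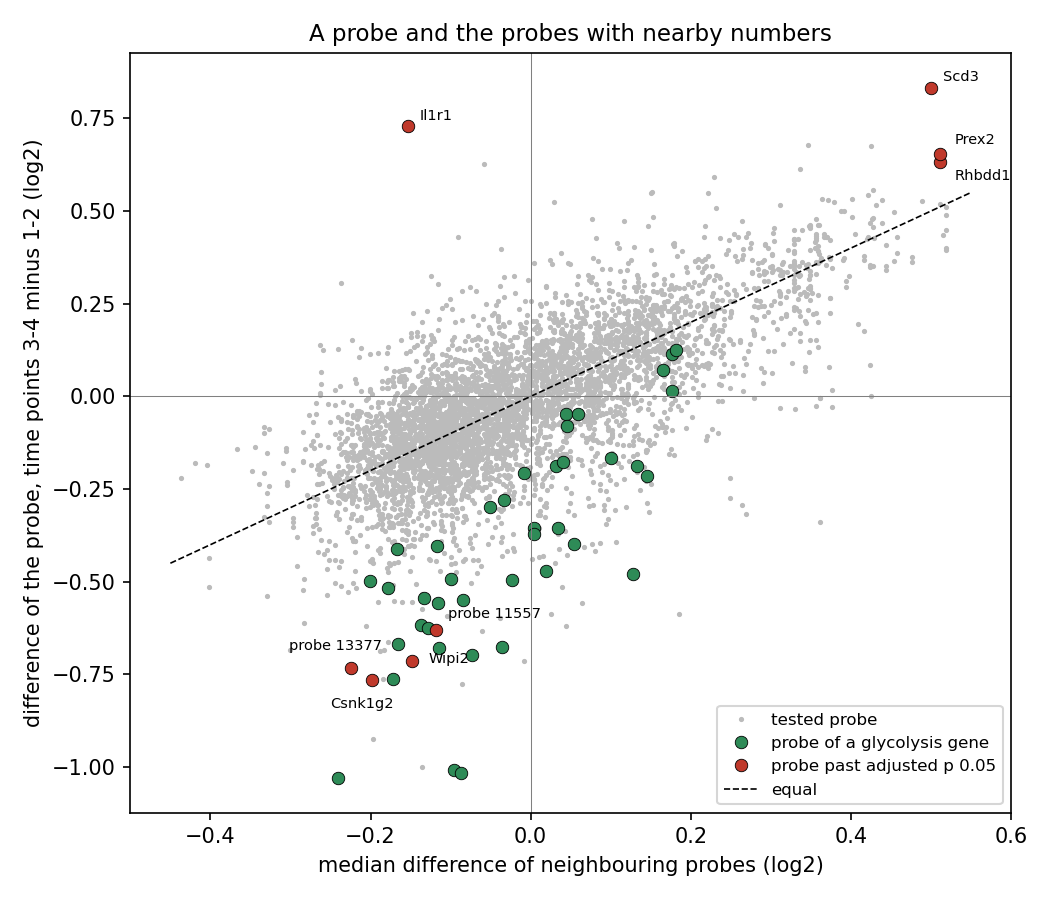
Each point is a tested probe, with the median log2 difference of its neighbours within 20 probe numbers (horizontal axis) and its own log2 difference between time points 3-4 and 1-2 (vertical axis). Rhbdd1, Prex2 and Scd3 lie at the right end, where neighbours were also high, and Il1r1 lies far above its neighbours. The 40 probes of glycolysis genes (green) lie below the dashed line of equal values. Of these 40, 16 are of Gapdh and 16 of Ldha, and probes of the same gene are not independent results.

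The glycolysis genes measured all had negative differences between time points 3-4 and 1-2, with no member past the threshold. Of 21 enzymes listed, 17 were on the array and 9 had enough values. All 9 had a difference below 0, against 57.9% of all genes tested, and their median was -0.30, against -0.04 over all genes. At an unadjusted p under 0.05, 4 of the 9 were lower (5.48% of all genes), and 2 were lower without overlap (3.35% of all genes). The members of this list were chosen with earlier results of these data known, and the list is described without a test of its own. Pfkl, the liver form of phosphofructokinase, which sets the pace of glycolysis, was -1.195, -0.78, -0.975 and -1.115 on arrays 3, 3r, 4 and 4r, against -0.145, -0.65, -0.52 and -0.365 on arrays 1, 1r, 2 and 2r. The groups did not overlap, and the difference was -0.60 ± 0.14 (SE, n = 4 each; limma, adjusted p = 0.0764). Both of its probes were lower, at -0.52 and -0.68.

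Gapdh, glyceraldehyde-3-phosphate dehydrogenase, was -0.58, -0.35, -0.71 and -0.41 at time points 3-4, against 0.50, 0.34, 0.02 and -0.41 at time points 1-2. Array 2r lay within the range of the later arrays, so the groups overlapped. The difference was -0.63 ± 0.16 (SE, n = 4 each; limma, adjusted p = 0.114). It was -0.93 against time point 1 alone and -0.32 against time point 2 alone, so that the earlier time points differed from each other. All 16 tested probes of Gapdh were below 0, from -1.03 to -0.35, and the medians of their neighbours ran from -0.24 to 0.03. Most of these probes stood at places 60, 120, 180 and 240 of blocks 19, 20, 23 and 24. They measure the same gene and are not independent results. Tpi1, triosephosphate isomerase, was -0.69, -0.47, -0.865 and -0.51 at time points 3-4, against 0.10, -0.12, -0.08 and -0.46 at time points 1-2. Its groups were separated by only a small step between arrays 3r and 2r, and the difference was -0.49 ± 0.14 (SE, n = 4 each; limma, adjusted p = 0.177). Eno3, an enolase best known from muscle, was -0.60, -0.525 and -0.30 on arrays 3, 4 and 4r, against -0.06, 0.26, -0.15 and -0.30 at time points 1-2. Array 3r gave no value for Eno3, and the difference was -0.41 ± 0.15 (SE, n = 3 and 4; limma, adjusted p = 0.286).

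The other 5 enzymes had smaller differences, from -0.30 for Pklr, the liver pyruvate kinase, to -0.15 for Ldha, lactate dehydrogenase A. Pgk1, phosphoglycerate kinase, had -0.28, Pgam1, phosphoglycerate mutase, had -0.21, and Aldoa, aldolase A, had -0.21. Aldoa was above the array median on all 8 arrays. Of the 16 tested probes of Ldha, 12 were below 0, and most of the 16 likewise stood at places 60, 120, 180 and 240 of their blocks. Over the 7 members with a value on every array, the mean ratio was -0.52, -0.24, -0.48 and -0.38 on arrays 3, 3r, 4 and 4r, against 0.11, -0.04, -0.05 and -0.16 on arrays 1, 1r, 2 and 2r. This mean was lower on each later array than on any earlier one. The difference was larger on the unmarked arrays, at -0.91 for Gapdh, -0.79 for Tpi1 and -0.55 for Pgk1. On the arrays marked r it was -0.35 for Gapdh, -0.20 for Tpi1 and -0.01 for Pgk1. With the median of the neighbours taken off, all 9 members were still below 0, with a median of -0.31. They were also all below 0 without centring of the arrays, where the median of all genes was 0.06. Without array 4, 8 members were tested, all 8 were below 0, and their median was -0.29.

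**Figure D4:**
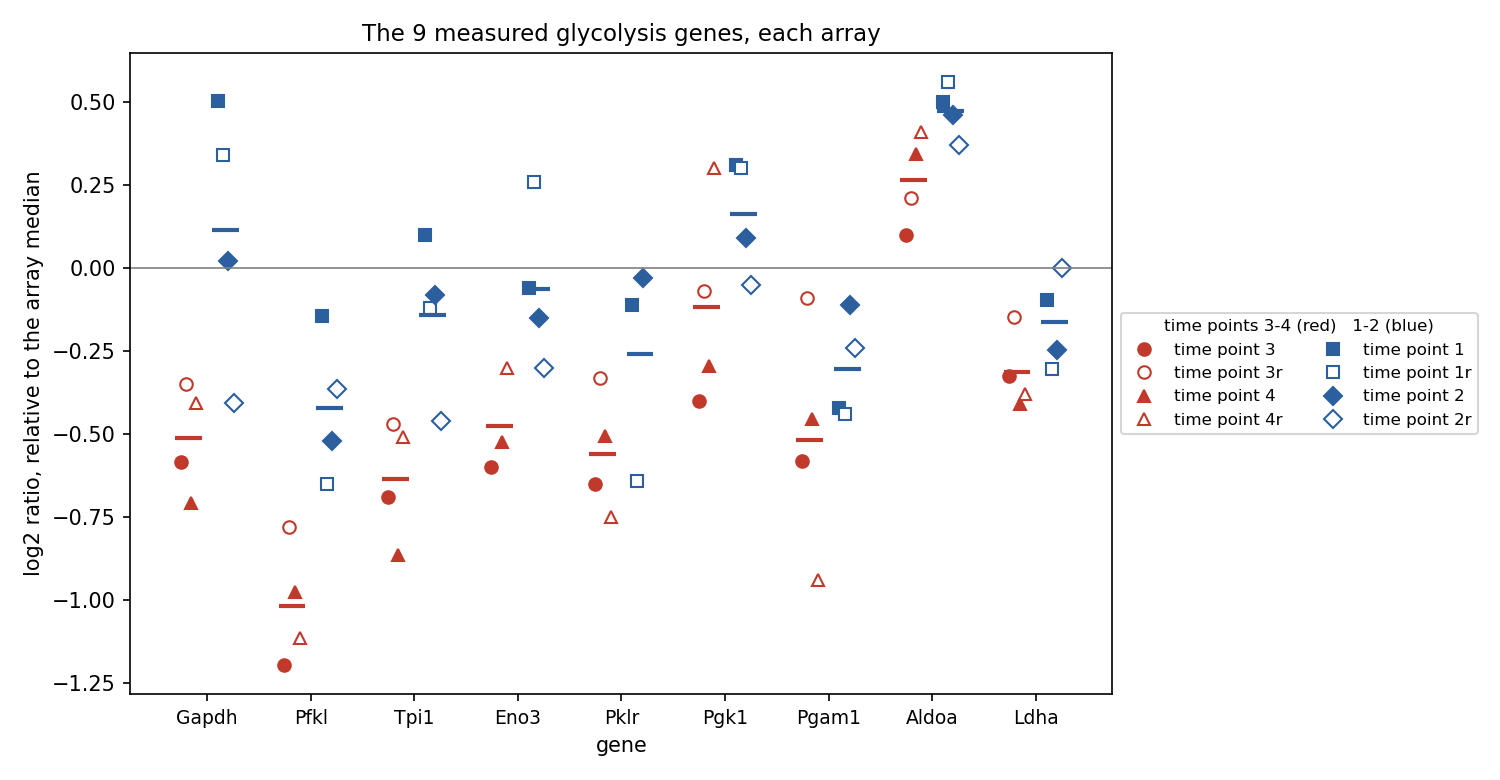
Each symbol is 1 array's log2 ratio relative to the array median (vertical axis) for the 9 tested glycolysis genes (horizontal axis), with time points 3-4 in red left of time points 1-2 in blue and bars at the group means. The red bar lies below the blue bar for every gene, and the symbols of Pfkl and Tpi1 do not overlap.

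The promoters of 4 of these enzymes are shown because the genes differed in one direction. Glycolytic promoters are known for hypoxia-response elements, whose core is ACGTG or GCGTG, and only the form ACGTG was searched. This form was searched on both strands, as ACGTG or CACGT, and the E-box CACGTG holds both and is counted as 1 place. Places with GCGTG are neither marked nor counted. Each sequence runs from 250 bases before to 50 after the gene's start (RefSeq, GRCm38.p6), 5′ to 3′ on the gene's strand, with the matches in capitals. Pfkl lies at chr10:78009758-78010057 (minus strand), Gapdh at chr6:125165724-125166023 (minus), Tpi1 at chr6:124814109-124814408 (minus) and Ldha, the first of 2 promoters listed, at chr7:46845554-46845853 (plus).
Pfkl: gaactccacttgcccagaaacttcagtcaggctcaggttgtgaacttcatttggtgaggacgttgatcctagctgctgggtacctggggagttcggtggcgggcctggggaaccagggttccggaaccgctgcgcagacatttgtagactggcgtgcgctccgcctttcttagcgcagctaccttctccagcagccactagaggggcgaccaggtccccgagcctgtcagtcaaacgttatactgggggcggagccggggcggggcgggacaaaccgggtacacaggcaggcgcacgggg
Gapdh: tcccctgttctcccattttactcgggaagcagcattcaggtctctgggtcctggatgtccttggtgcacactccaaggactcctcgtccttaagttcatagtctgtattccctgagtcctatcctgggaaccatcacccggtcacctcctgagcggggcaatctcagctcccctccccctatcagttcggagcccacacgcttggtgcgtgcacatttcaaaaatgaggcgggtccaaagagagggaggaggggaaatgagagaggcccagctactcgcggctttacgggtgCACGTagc
Tpi1: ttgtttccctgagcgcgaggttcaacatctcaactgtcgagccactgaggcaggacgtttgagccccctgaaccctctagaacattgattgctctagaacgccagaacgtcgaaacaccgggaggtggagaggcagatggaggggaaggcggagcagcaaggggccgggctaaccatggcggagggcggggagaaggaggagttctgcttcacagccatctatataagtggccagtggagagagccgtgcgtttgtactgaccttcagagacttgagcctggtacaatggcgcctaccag
Ldha: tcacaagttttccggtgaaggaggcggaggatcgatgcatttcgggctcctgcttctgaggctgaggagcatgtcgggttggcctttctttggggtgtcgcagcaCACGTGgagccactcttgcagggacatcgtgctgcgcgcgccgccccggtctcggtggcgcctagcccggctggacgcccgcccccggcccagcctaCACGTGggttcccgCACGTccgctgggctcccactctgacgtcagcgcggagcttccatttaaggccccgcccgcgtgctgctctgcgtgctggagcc
Pfkl, Tpi1, Aldoa, Eno3 and Pklr held no match of ACGTG in this window of the first promoter listed. Gapdh held 1, at the end of the window, Pgam1 held 1, Pgk1 held 2 and Ldha held 3 places. Whether matches went with the differences was not tested. Over the 9 tested enzymes, 4 promoters held a match (44.4%), against 25.1% of the 3391 tested genes with a listed promoter and 19.6% of all 32851 promoters listed. A match is a description of the letters and not a binding site.

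Lists next to glycolysis lay closer to 0. The 6 tested genes of glucose uptake and the hypoxia response were all below 0, with a median of -0.18, but 4 of 6 were below 0 without centring. Among them, Hif1a, the oxygen-regulated transcription factor subunit, had a difference of -0.34 ± 0.16 (SE, n = 4 and 3; limma, adjusted p = 0.436). Of 12 tested tricarboxylic acid cycle genes, 6 were above and 6 below 0, with a median of -0.02. Mdh2, the mitochondrial malate dehydrogenase, had 0.29, but 0.045 with the neighbours' median taken off. Of 26 respiratory chain genes, 11 were above and 15 below 0, and they included both Cox5b at 0.56 and Cox7b at -0.49, subunits of cytochrome oxidase. With the neighbours' median taken off, Cox5b had 0.17 and Cox7b had -0.25. In gluconeogenesis, 3 of 5 genes were above 0, with a median near 0, and Fbp1, fructose-1,6-bisphosphatase, had 0.45 on 3 arrays a side (limma, adjusted p = 0.279), and 0.15 with the neighbours' median taken off.

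Of 11 tested ATF4 targets and related genes of the amino acid response, 3 were above and 8 below 0, with a median of -0.11, and 6 were below 0 without centring. Ddit3, the stress-induced factor CHOP, was 0.31, 0.25, 0.315 and 0.69 on arrays 3, 3r, 4 and 4r, against 0.33, 0.06, 0.42 and 0.14 on arrays 1, 1r, 2 and 2r. The groups of Ddit3 overlapped widely, with a difference of 0.15 ± 0.14 (SE, n = 4 each; limma, adjusted p = 0.723). Sesn2, a sestrin that holds back mTORC1 when leucine is scarce, was above the array median on all 8 arrays and had a difference of -0.02 ± 0.14 (SE, n = 4 each; limma, adjusted p = 0.973). Hspa5, the chaperone BiP, was 0.96, 0.48, 0.845 and 1.11 at time points 3-4, against 0.49, -0.10, 0.64 and 0.64 at time points 1-2. Its groups overlapped through array 3r, and the difference was 0.43 ± 0.16 (SE, n = 4 each; limma, adjusted p = 0.279), or 0.26 without array 1r. Jdp2, a repressor of AP-1 sites, had -0.62, and Slc6a9, a glycine transporter, had -0.42, or -0.24 without array 2r. Slc3a2, the heavy chain shared by several amino acid exchangers, had 0.36, but 0.09 with the neighbours' median taken off and 0.22 without array 3r.

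Genes that handle glutamine itself were thinly measured. Of 31 listed, 7 were tested, 3 above and 4 below 0, with a median of -0.07. Glud1, glutamate dehydrogenase, had a difference of -0.13 ± 0.17 (SE, n = 3 each; limma, adjusted p = 0.813). Gad1, which makes the transmitter GABA from glutamate, had 0.33 (limma, adjusted p = 0.358), but 0.075 with the neighbours' median taken off and 0.21 without array 3r. Slc1a5, a glutamine carrier, had 2 values a side and was not tested, with -0.50 and -0.38 on arrays 3 and 3r, against -0.54 and -0.35 on arrays 1r and 2. Asns and Glul, the asparagine and glutamine synthetases, had no value on these 8 arrays.

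Genes of growth and stress signalling lay on both sides of 0. Fosb, an immediate early factor, was -1.71, -0.84, -1.475 and -1.92 at time points 3-4, against -0.85, -1.19, -0.57 and -0.29 at time points 1-2. The groups overlapped through array 3r, and the difference was -0.76 ± 0.18 (SE, n = 4 each; limma, adjusted p = 0.0888). Jun, its partner in AP-1, had 0.37 ± 0.15 in the other direction (SE, n = 4 each; limma, adjusted p = 0.343). Map2k6, a kinase that activates p38, had -0.71, and Mapk13, a p38 isoform, had 0.48 (limma, adjusted p = 0.182 and 0.177). The groups of Map2k6 overlapped and its difference was -0.43 without array 2r, while Mapk13 had 0.16 with the neighbours' median taken off. Fosb, Map2k6, Jdp2, Wipi2 and the proteasome gene Psmd2 had a like profile over the arrays. Each had its highest later value on array 3r and its highest earlier value on array 2r. They may therefore not be separate results, and why they went alike was not tested. Of 11 insulin and mTOR genes, 9 were below 0, with a median of -0.07, but 5 were below 0 without centring. Igfbp1, an insulin-repressed binding protein of insulin-like growth factors secreted by liver, was -0.33, -0.415 and -0.36 on arrays 3, 4 and 4r, against 0.19, 0.26, 0.08 and 0.04 on arrays 1, 1r, 2 and 2r. It was on opposite sides of the array median, with array 3r missing and a difference of -0.51 ± 0.14 (SE, n = 3 and 4; limma, adjusted p = 0.17). Akt1, a kinase of the insulin pathway, had -0.30 without overlap (limma, adjusted p = 0.369), and -0.17 with the neighbours' median taken off.

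Of 22 proteasome and ubiquitin genes, 16 were below 0, with a median of -0.16, and 4 had an unadjusted p under 0.05, all lower (5.48% of all genes). Psmd2, a subunit of the proteasome's regulatory particle, had -0.77 with values on 7 arrays, overlapping groups and -0.46 without array 2r. Ube2b, a ubiquitin-conjugating enzyme, had -0.42 without overlap. With the neighbours' median taken off, Ube2b had -0.19 and the list median was -0.08. Of 44 cytosolic ribosomal protein genes, 16 were above and 28 below 0, with a median of -0.10, but 22 were below 0 without centring. At an unadjusted p under 0.05, 5 were higher (5.6% of all genes) and 4 were lower (5.48% of all genes). Rpl23 at 0.45 and Rpl12 at 0.44 did not overlap between groups, and had 0.15 and 0.185 with the neighbours' median taken off. Of 15 cytochrome P450 and conjugation genes, 10 were below 0, with a median of -0.18, which was -0.05 when arrays were centred within blocks.

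**Figure D5:**
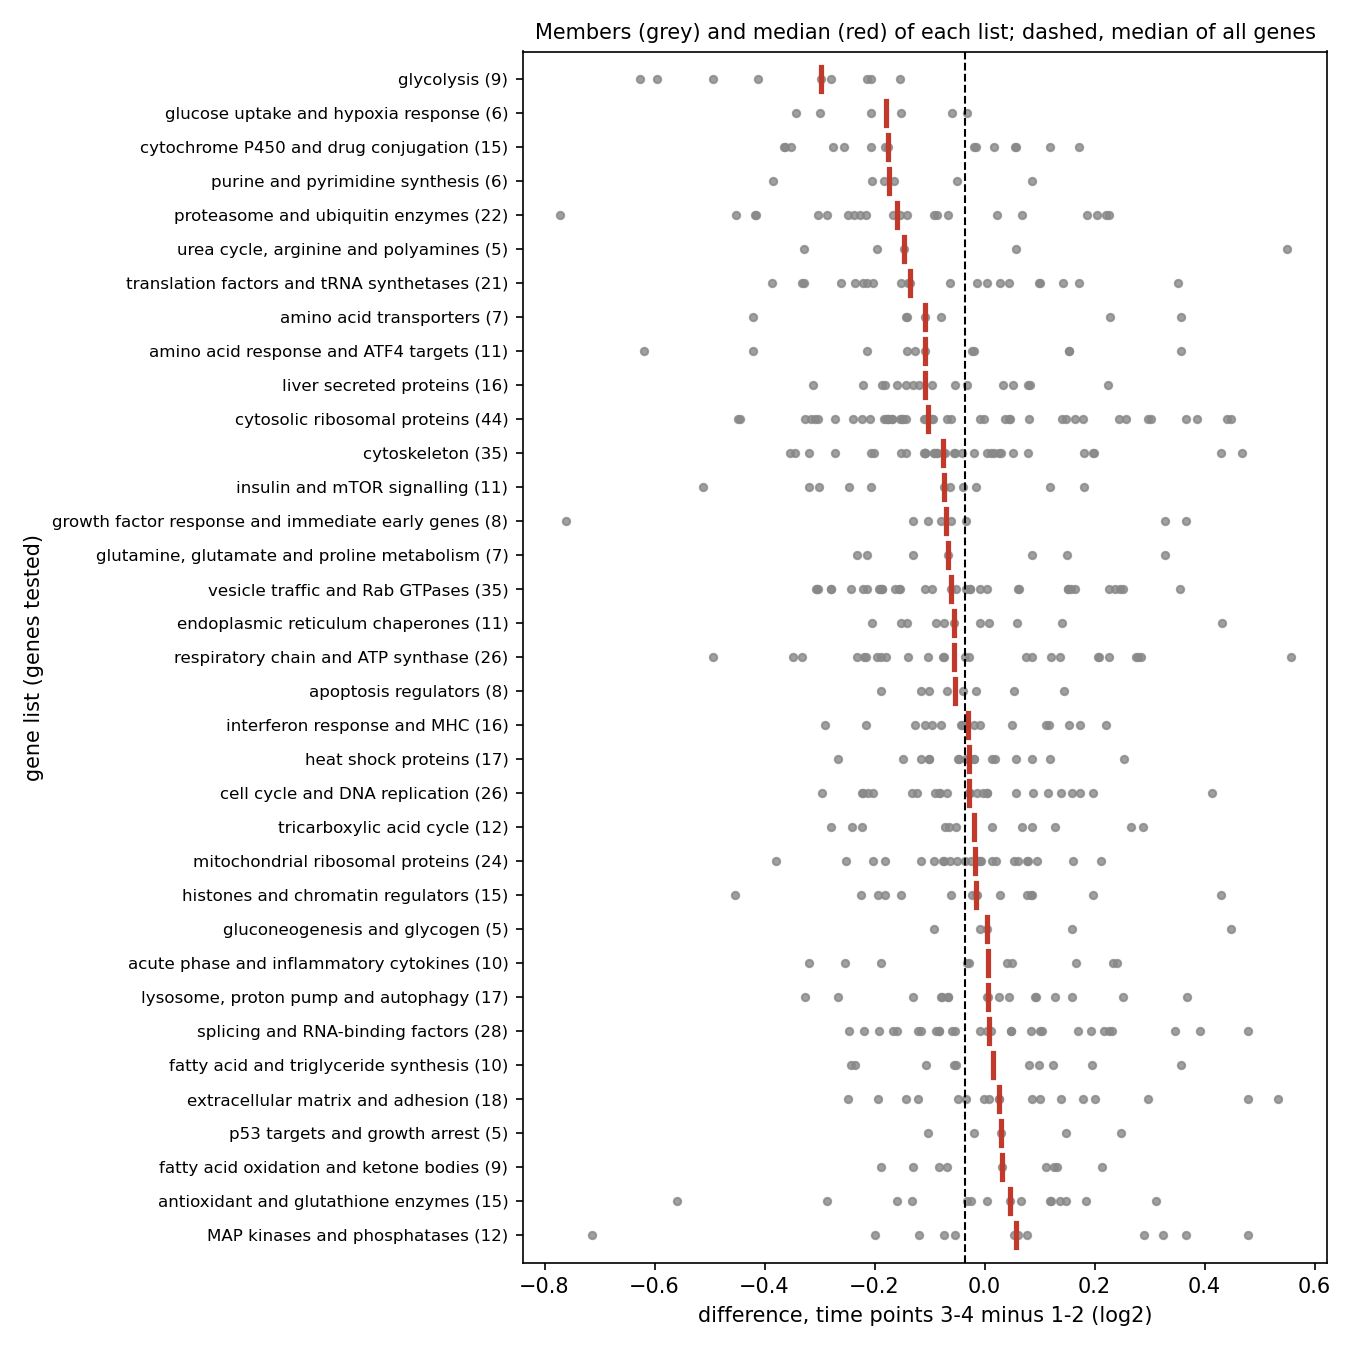
Each grey point is a gene's log2 difference between time points 3-4 and 1-2 (horizontal axis) in the lists with 5 or more tested genes (vertical axis, number tested in brackets), with the list median in red and the median of all genes dashed. Glycolysis has the lowest median, at -0.30, and all its points lie left of the dashed line.

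Beyond the lists, the naming rule added further genes with separate groups but no call. Rab12, a small GTPase of membrane traffic, had 0.68 ± 0.16 (SE, n = 4 and 3; limma, adjusted p = 0.0764), Ypel5 had 0.65, Ccdc28b had 0.59, Babam1, part of a DNA repair complex, had 0.54, and Krt33b, a hair keratin, had 0.52. With the neighbours' median taken off, the values were 0.33 for Rab12, 0.15 for Ypel5, 0.38 for Ccdc28b, 0.16 for Babam1 and 0.16 for Krt33b. The lower ones were 5730420D15Rik at -0.61, St6galnac4, a sialyltransferase, at -0.55, Carmil1, a regulator of actin filament capping, at -0.52, Pop7, a subunit of RNase P, at -0.50, Olfm1 at -0.48 and Gkn1 at -0.47. Their values with the neighbours' median taken off were -0.51, -0.51, -0.36, -0.32, -0.43 and -0.34 in the same order.

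Of 45 genes with a difference below -0.5, all 45 were below the array median at time points 3-4 and 31 were already below it at time points 1-2. Of 28 genes above 0.5, all 28 were above the median at time points 3-4 and 7 were above it at time points 1-2. Both sets were picked by the difference itself, which largely fixes their side of the median at time points 3-4. Markers of cell types were measured unevenly, and ratios give no level to judge the cells by. Of 14 hepatocyte markers on the array, 7 were tested, with 5 below 0, none at an unadjusted p under 0.05 and a median of -0.13, which was 0.04 with the neighbours' median taken off. Over 5 of them the mean ratio ran from 0.01 to 0.13 on the arrays of time points 3-4, against -0.05 to 0.35 on those of time points 1-2. Alb had 2 values a side. Of 13 stellate cell or fibroblast markers, 6 were tested, with a median of -0.17. Of 9 endothelial markers, 2 were tested, Cdh5 at 0.53 and Kdr at 0.29, both with overlapping groups. Cdh5 had 3 values at time points 3-4. At their lowest over the alternatives, Cdh5 had 0.16 and Kdr 0.06. Of 12 macrophage markers only Aif1 was tested, at -0.02, and of 5 bile duct markers 4, with Krt19 at -0.35. The part of such transcripts in the results was not tested.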

How the data were processed

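The authors deposited 1 column of ratios per array, taken here as log2 ratios of the Cy5 over the Cy3 channel. The base, the direction, the normalization and the rule for blank spots are not given in the sources used here, and spot intensities were not used. The number of arrays limits the precision. Each array was centred on its median (deposited medians 0.18 to 0.435). Probes of a symbol were averaged, and 2562 of 17280 probes without a usable symbol kept their number. The reference gene table (GRCm38.p6) matched 14445 of 14719 annotated probes. Genes with 3 or more values a side were tested in R 4.3.3 with limma 3.58.1, with the time point as a random block (estimated correlation -0.02). An adjusted p under 0.05 counted as called. The fit was also run on simulated data with independent noise for each value. Such data hold no likeness between neighbouring probes or arrays of a time point, so the run does not cover these features.

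The members and the 42 gene lists were chosen with earlier results of these data known. The naming rule took the called genes with a symbol and separate groups, filled to 10 a direction by smallest p, then of each list the called members or otherwise the 2 with the smallest p, and 9 chosen genes, of which 1 is not reported here. Alternatives changed the blocking, arrays, centring, filters and moderation, and 3 were added after seeing the data (equal spread, the neighbours' median taken off, and arrays as independent with arrays left out).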

Additional observations from a re-analysis of the deposited data

Results flagged for a closer look

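In groups of 4 arrays, 5 of 173 groups of the named genes (2.89%) held 1 array far from the others by Dixon's criterion, where chance gives about 1 in 20. On array 3r, Rpl12 was 0.80 while the other arrays of time points 3-4 were at most 0.285, and Eif2b4, a subunit of the exchange factor eIF2B, was 0.69 while the others were at most 0.02. Eif2b4 had a difference of 0.35 between time points 3-4 and 1-2, which was -0.03 with the neighbours' median taken off. On array 4r, Ddit3 was 0.69 while the others were at most 0.315, and Rab12 was -0.06 while the others were at least 0.38. On array 1r of time points 1-2, Akt1 was -0.32 while the others were at least -0.16. Leaving out the array concerned kept the direction of each difference. It was 0.05 for Ddit3, against 0.15 with all arrays, 0.17 for Eif2b4, against 0.35, 0.30 for Rpl12, against 0.44, 0.80 for Rab12, against 0.68, and -0.34 for Akt1, against -0.30.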

How the results depend on the processing

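Against 4 genes called higher and 4 lower, limma called 0 in both directions with the arrays of a time point averaged, with the replicate block (arrays marked r as a block), on the arrays marked r alone, against time point 2 alone, with quantile normalization, with centring within blocks, with genes of 2 or more values a side, with arrays scaled to one spread, with the neighbours' median taken off and on all 20 arrays. In these fits 126 to 589 genes had an unadjusted p under 0.05, and the cause was not tested. Without centring, 4 were called higher and 0 lower, and 64.4% of genes lay above 0, against 42.1% with centring, as the median moved by 0.096 to 0.06. The unmarked arrays alone gave 19 higher and 75 lower, time point 3 alone 55 and 16, time point 4 alone 20 and 83, and time point 1 alone as the earlier group 108 and 83. The last 3 rest on negative estimated correlations (-0.20, -0.25 and -0.27), and with arrays taken as independent they gave 0 and 0, 4 and 42, and 12 and 5. Trend and robust moderation gave 14 and 1, and each probe on its own 5 and 12. Leaving out 1 array gave 0 to 63 higher and 0 to 66 lower, with the highest counts without array 2r. The estimated correlation of arrays was negative there (-0.24), and with arrays taken as independent the fit without array 2r called 0 higher and 1 lower. The r marks did not pair arrays by the labels, and deviations of arrays marked r correlated at -0.10 between groups. Arrays as independent samples (4 and 4) and genes with all 8 values (3 and 4) stayed close.

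Of 2505 values of 104 named genes under alternatives, 2200 kept sign and side of the threshold, 114 lost a call, 141 gained one and 50 changed sign. On the arrays marked r alone, Aif1 was 0.115, Dbp 0.14, Eef1a1 0.035, Fam162a 0.05, Nr1d1 -0.095, Oaz1 0.055 and Sesn2 0.03, and on the unmarked arrays Ddit3 was -0.0625 and Derl1 0.0075. With time point 3 alone, Dbp was 0.1725 and Nr1d1 -0.045. With time point 4 alone, Aif1 was 0.155, Bbc3 -0.017, Fdft1 -0.13, Insig2 0.051 and Sesn2 0.1375. Against time point 1 alone, Bak1 was 0.00069, Dbp 0.036, Fam162a 0.00125 and Krt7 0.089, and against time point 2 alone Aif1 was 0.18, Glud1 0.019 and Sesn2 0.061. Without centring, Aif1 was 0.08, Dbp 0.075 and Sesn2 0.0775. With quantile normalization, Dbp was 0.0020 and Fam162a 0.0031, and with one spread Dbp was 0.0014. With centring within blocks, Aif1 was 0.015, Fdft1 -0.0013 and Sesn2 0.0125. With the neighbours' median taken off, Aif1 was 0.016, Apoe 0.01, Cebpa 0.05, Diablo -0.08 and Eif2b4 -0.031. Leaving out 1 array gave -0.14 to 0.079 for Aif1, -0.12 to 0.074 for Dbp, -0.042 to 0.24 for Fdft1, -0.197 to 0.012 for Krt7, -0.0087 to 0.203 for Nr1d1 and -0.12 to 0.082 for Sesn2. Each of these differences was under 0.25 in size in the fit reported above, except for Eef1a1, Eif2b4, Fam162a and Oaz1.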

Other observations

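The other 12 arrays of the study gave values for the genes described above, without a comparison. Tpi1 ranged from -0.81 to 0.20 on them, with a median of -0.23, and was below the array median on 8 of 12. Gapdh ranged from -1.36 to 2.16, with a median of -0.54, and was below it on 9 of 12. Pfkl ranged from -1.87 to 1.99 on 11 arrays and was below it on 9. Ldha was below the median on 9 of 12, and Aldoa on 1 of 11. Scd3 was below the array median on all 8 of the other arrays with a value, from -0.82 to -0.04, as it was at time points 1-2 and unlike time points 3-4. Rhbdd1 was below it on 1 of 10, with a median of 0.255. Il1r1 ranged from -1.53 to 2.5 on 11 arrays, with a median of 0.33, and Csnk1g2 from -0.54 to 0.85 on 11, with a median of 0.08. Il1r1 and Hspa5 lay close on most of these arrays, at 1.16 and 1.26 on array 9 and -1.53 and -1.35 on array 11. They lay farther apart on array 5, at 2.5 and 1.44, and on array 10r, at 0.39 and 0.95. Why the values of Il1r1 and Hspa5 went alike was not tested. A probe's value correlated with the median of its neighbours within the 8 arrays too, at 0.65 on array 1 and at 0.20 to 0.39 on the other arrays.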
